A study of Mus musculus with 4 samples.

Results

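The heterogeneous nuclear ribonucleoproteins (hnRNPs) are abundant RNA-binding proteins that coat newly made transcripts, and they steer splicing, export, stability and translation. Here 10 of their genes were followed in mouse neural stem cells by Nanopore long-read RNA-seq: Hnrnpa1, Hnrnpa2b1, Hnrnpc, Hnrnpd, Hnrnpdl, Hnrnph1, Hnrnph3, Hnrnpk, Hnrnpl and Hnrnpu. Members were taken by gene symbol, from a list drawn up with earlier results of these data known, and were 10 of 14949 genes and 127 of 46637 isoforms that named a gene. In splicing, hnRNP A1 is the textbook antagonist of SR proteins and often blocks exons, hnRNP C binds uridine-rich stretches, hnRNP L binds CA-rich RNA and hnRNP H binds runs of G. Several hnRNP genes are themselves spliced into different protein forms, and some also make isoforms that carry a splice junction well beyond their stop codon, a structure known to mark transcripts for nonsense-mediated decay. In the developing cortex these proteins act in the splicing programmes that change as stem cells give rise to neurons.

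The study asked whether splicing is altered by loss of Tut1, whose product is the terminal uridylyltransferase of the spliceosomal U6 snRNA. Cells from the neocortex of floxed embryos were grown as neurospheres and exposed to lipid nanoparticles (LNP) for 3 days. Cre mRNA in the LNP was the means of deletion, with no Cre driver or cell type restriction. The library labelled wild type came from Tut1f/f cells given empty LNP. The library labelled Tut1 KO came from Tut1f/f cells, P53 KO from p53f/f cells (floxed Trp53), and Tut1 and P53 KO from Tut1f/f;p53f/f cells, each given Cre-LNP. Libraries are named by these labels throughout. Each was 1 library, so no difference below has a replicate check, and the wild type library differed from the others in Cre mRNA as well as in genotype. No library held Trp53-floxed cells without Cre mRNA. Values for the 4 libraries are given in the order wild type, Tut1 KO, P53 KO, Tut1 and P53 KO.

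The libraries held 3936827 to 5125888 reads, of which 2863392 to 4244467 named a gene. Reads that named no gene made up 17.2% of the wild type library and 27.3% to 30.2% of the others, and 1 rRNA gene took 18.7% of wild type gene reads and 5.46% to 9.75% elsewhere. The 8 markers of neural stem cells and radial glia were detected in every library, at a summed 11756 to 13098 reads per 1e6 gene reads (CPM), most of it Fabp7 (9567 to 11194 CPM). Markers of microglia and endothelium were at 0 reads in every library, 3 of 3 genes in each list. Those of neurons summed to 9.36 to 15.4 CPM (4 genes) and those of oligodendrocytes to 2.34 to 3.74 CPM (2 of 3 detected). The astrocyte list summed to 46.6, 6.65, 4.10 and 24.0 CPM, nearly all from Aldh1l1, with Gfap at 0 in every library and Aqp4 between 0 and 4 reads. Tut1 itself had 37, 11, 14 and 27 reads and Trp53 175, 67, 10 and 19 reads. Tut1 reads in the P53 KO and the Tut1 and P53 KO libraries thus ran against their labels. Gene reads are not limited to the floxed part of Tut1, so they are a weak check, and Trp53 reads were low in both libraries and do not tell them apart. Whether these 2 labels were exchanged was not tested. The study reports splicing events shared by its Tut1 KO and its Tut1 and P53 KO cells and absent from its P53 KO cells, which runs with the labels. An exchange would turn the sign of every ratio between the 2 libraries and swap their values against wild type. Xist had 0, 44, 49 and 0 reads, and the Y-linked gene Kdm5d had 102, 0, 0 and 96 reads, so the wild type library and the library labelled Tut1 and P53 KO stood apart from the other two in sex-linked transcripts.

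Of the 10 hnRNP genes, Hnrnpd was at least 2-fold higher and Hnrnpk at least 2-fold lower in each of the 3 Cre-LNP libraries than in wild type. Other members moved by less than 2-fold. A gene was counted as different between 2 libraries where the ratio of its CPM, scaled by the trimmed mean of M-values (TMM), reached 2-fold and the exact 95% interval of the ratio left out no change. By this rule 1 member was higher and 1 lower in Tut1 KO than in wild type (2 of 10, against 26.0% of 9882 genes tested, 13.1% higher and 12.8% lower), in P53 KO (27.6% of all genes, 13.2% higher and 14.3% lower) and in Tut1 and P53 KO (20% of all genes, 10.1% higher and 9.94% lower). The members' share was close to that of the whole table. Between Tut1 and P53 KO and P53 KO, 0 of 10 members were counted, against 7.06% of all genes. No test stands behind these counts, because each group was 1 library and the intervals cover counting error only.

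More members lay below than above their wild type level in the Cre-LNP libraries. The median log2 ratio to wild type over the 10 members was -0.35 in Tut1 KO, -0.44 in P53 KO and -0.21 in Tut1 and P53 KO, beside 0.02, 0.02 and -0.02 over all genes tested. With the interval alone as the rule, 2 members were higher and 6 lower in Tut1 KO (27.8% and 27.6% of all genes), 2 higher and 6 lower in P53 KO (29.1% and 28.5%), and 2 higher and 4 lower in Tut1 and P53 KO (23.7% and 25.3%). Against P53 KO, Tut1 and P53 KO had 5 members higher and 2 lower by the interval (17.0% and 16.2% of all genes), with a median of 0.23 beside -0.02 over all genes. The first 3 of these comparisons share the wild type library. Such intervals narrow as reads rise, and here and below all genes were not matched to the members in read depth. Between the Tut1 KO to wild type ratio and the Tut1 and P53 KO to P53 KO ratio, which share no library, 6 of 10 members had opposite signs with both intervals excluding no change, against 16.7% of all genes, and whether these shares differ was not tested. These signs rest on the labels P53 KO and Tut1 and P53 KO, with which the splicing events reported by the study run. With the 2 exchanged, all 6 members would have the same sign in both ratios.

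**Figure D1:**
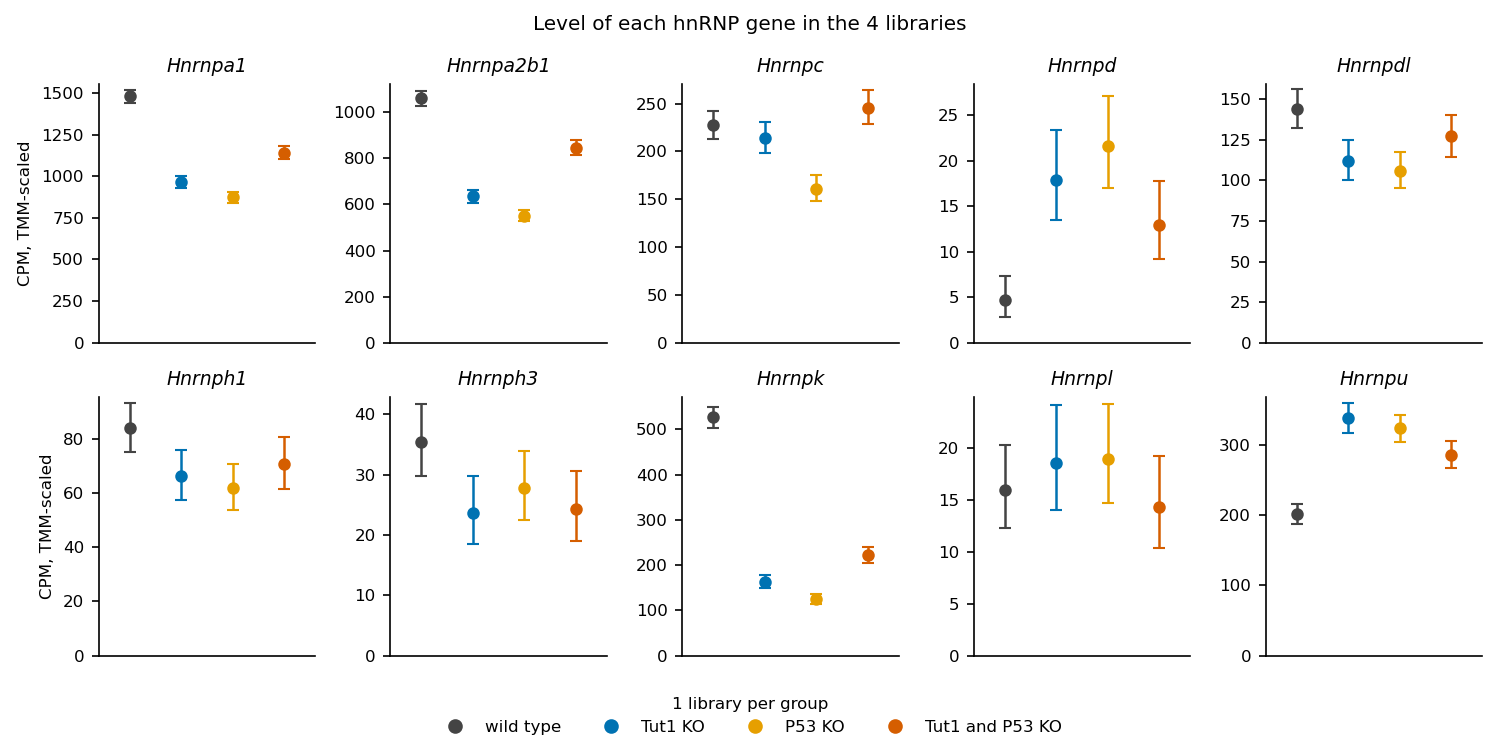
Level of each of the 10 hnRNP genes in the 4 libraries, as TMM-scaled CPM on a linear axis from 0, with exact Poisson 95% intervals as bars and 1 library per point. Hnrnpk stood at 527 CPM in wild type and at 125 to 222 CPM in the other libraries, whereas Hnrnpd stood at 4.73 CPM in wild type and 13.0 to 21.7 CPM in the others.

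Hnrnpk (ENSMUSG00000021546, chr13:58391142-58403343 on GRCm38, minus strand) encodes a KH-domain protein that binds cytidine-rich RNA and DNA. It had 2114, 491, 426 and 665 reads, or 527, 163, 125 and 222 CPM. The intervals of the 4 levels did not overlap one another, and wild type was the highest library. Hnrnpk was 3.23-fold lower in Tut1 KO than in wild type (log2 ratio -1.69, 95% interval -1.83 to -1.55). It was 4.22-fold lower in P53 KO (-2.08, -2.23 to -1.93) and 2.38-fold lower in Tut1 and P53 KO (-1.25, -1.38 to -1.12). Tut1 and P53 KO was 1.78-fold above P53 KO (0.83, 0.65 to 1.01). In a bulk library, fewer cells of a type and less RNA per cell cannot be told apart.

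Hnrnpd (ENSMUSG00000000568, chr5:99955935-99978938, minus strand) encodes AUF1, which binds AU-rich elements and is best known for its part in mRNA decay. It had 19, 54, 74 and 39 reads, or 4.73, 17.9, 21.7 and 13.0 CPM. The wild type level lay below the other 3, whose intervals overlapped. Hnrnpd was 3.79-fold higher in Tut1 KO (log2 ratio 1.92, 1.15 to 2.76), 4.58-fold higher in P53 KO (2.19, 1.45 to 3.00) and 2.75-fold higher in Tut1 and P53 KO (1.46, 0.63 to 2.33). Counts this low leave wide intervals, and Tut1 and P53 KO stood at -0.74 against P53 KO (-1.33 to -0.16).

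Hnrnpa1 (ENSMUSG00000046434, chr15:103240432-103246692, plus strand) and Hnrnpa2b1 (ENSMUSG00000004980, chr6:51460932-51469894, minus strand) encode paralogous proteins with a pair of RNA recognition motifs and a glycine-rich tail. Hnrnpa1 had 5937, 2905, 2982 and 3420 reads, or 1479, 965, 873 and 1140 CPM. Hnrnpa2b1 had 4254, 1912, 1885 and 2539 reads, or 1060, 635, 552 and 846 CPM. In both genes wild type was the highest library and P53 KO the lowest, and none of the 4 intervals overlapped. For Hnrnpa1 the log2 ratios to wild type were -0.62, -0.76 and -0.38, and for Hnrnpa2b1 they were -0.74, -0.94 and -0.32, all short of 2-fold with intervals that excluded no change. Between the Tut1 and P53 KO and P53 KO libraries the ratios were 0.39 and 0.62. GENCODE M21 lists 16 other genes near-identical to Hnrnpa1, with at least 90% identity over at least 50% of its coding sequence, so its reads are uncertain to that extent. Only 1 of these, the pseudogene Gm10052, took reads (314, 189, 284 and 151, or 4.42% to 9.52% of the Hnrnpa1 reads). Near-identical copies of Hnrnpa2b1, Hnrnpc, Hnrnpdl and Hnrnpk had 0 reads.

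Hnrnpu (ENSMUSG00000039630, chr1:178321108-178337797, minus strand) encodes the scaffold attachment factor A, which ties RNA to chromatin. It had 808, 1015, 1104 and 855 reads, or 201, 337, 323 and 285 CPM. Its log2 ratios to wild type were 0.75, 0.68 and 0.50, positive with intervals that excluded no change and short of 2-fold. Wild type was the lowest library, and the ratio of Tut1 and P53 KO to P53 KO was -0.18 (-0.31 to -0.05).

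Hnrnpc (ENSMUSG00000060373, chr14:52073377-52104028, minus strand), whose product packages nascent RNA and limits the use of cryptic exons, had 913, 644, 550 and 737 reads, or 227, 214, 161 and 246 CPM. P53 KO was the lowest library, at a log2 ratio of -0.50 to wild type (-0.65 to -0.34), and neighbouring levels among the other 3 overlapped. Tut1 and P53 KO was 1.53-fold above P53 KO (0.61, 0.45 to 0.77). Hnrnpdl (ENSMUSG00000029328, chr5:100033577-100039664, minus strand), a paralogue of Hnrnpd, had 577, 337, 362 and 381 reads, or 144, 112, 106 and 127 CPM, with log2 ratios to wild type of -0.36, -0.44 and -0.18.

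The remaining members had few reads. Hnrnph1 (ENSMUSG00000007850, chr11:50376990-50386528, plus strand), the G-run binding hnRNP H, had 337, 199, 211 and 212 reads, or 83.9, 66.1, 61.7 and 70.7 CPM. Its relative Hnrnph3 (ENSMUSG00000020069, chr10:63014664-63024217, minus strand) had 142, 71, 95 and 73 reads, or 35.4, 23.6, 27.8 and 24.3 CPM. Hnrnpl (ENSMUSG00000015165, chr7:28808541-28822266, plus strand) had 64, 56, 65 and 43 reads, or 15.9, 18.6, 19.0 and 14.3 CPM. Ratios to wild type ran from -0.34 to -0.25 for Hnrnph1 and -0.44 in P53 KO, from -0.58 to -0.35 for Hnrnph3, and from -0.15 to 0.25 for Hnrnpl on the log2 scale. For Hnrnpl all 4 intervals of the ratio, including that of Tut1 and P53 KO to P53 KO (-0.41, -0.999 to 0.17), included no change.

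**Figure D2:**
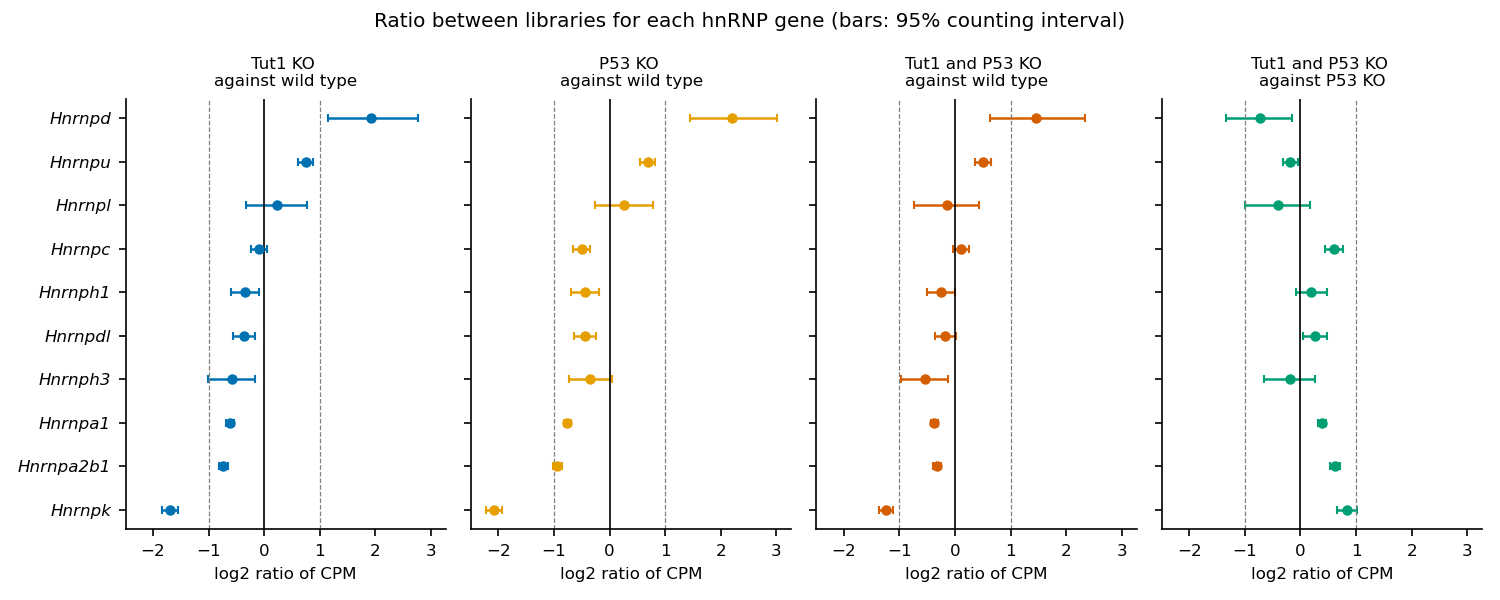
Log2 ratio of TMM-scaled CPM for each hnRNP gene between 2 libraries, in 4 panels, with the exact 95% counting interval as a bar, a solid line at no change and dashed lines at 2-fold. Hnrnpk lies left of the lower 2-fold line in the 3 panels against wild type (-1.69, -2.08 and -1.25) and Hnrnpd right of the upper one (1.92, 2.19 and 1.46), while in the last panel the points of Hnrnpk (0.83) and Hnrnpd (-0.74) lie on the opposite sides of no change.

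Read against depth and cell markers, the order of the libraries in the Hnrnpk, Hnrnpa1 and Hnrnpa2b1 levels (wild type, then Tut1 and P53 KO, then Tut1 KO, then P53 KO) was also that of Aldh1l1 (187, 71, 16 and 11 reads in that order). Of the same astrocyte list, Aqp4 did not follow this order (0, 1, 4 and 3 reads, sorted likewise) and Gfap had 0 reads throughout. The wild type and Tut1 and P53 KO libraries, the higher ones, were also the ones with Y-linked and without Xist reads. The wild type library alone had the low share of reads naming no gene. Single neural stem cell markers also set wild type apart from the Cre-LNP libraries, with Hes1 at 148, 503, 464 and 445 CPM, Nes at 138, 308, 295 and 196, Sox2 at 210, 382, 395 and 266, Sox9 at 36.6, 87.1, 91.6 and 66.3, Pax6 at 8.72, 19.9, 16.4 and 16.3, and Vim at 1253, 763, 632 and 612 in the usual order. Slc1a3 lay between 286 and 327 CPM. The part of these differences in the hnRNP levels and isoforms was not tested.

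With a Tut1 term and a Trp53 term fitted to all 4 libraries, as labelled, edgeR's quasi-likelihood test called 0 of 10 members for Tut1 (0% of all genes) and 0 of 10 for Trp53 (0.0101% of all genes, the single pseudogene Rpl3-ps1, named after its values were seen). At an unadjusted p under 0.05 there were 171 genes for Tut1 status with edgeR and 70 with DESeq2, and 147 and 62 for Trp53 status, with 0 members among them in each case. This fit has 1 residual degree of freedom. The fitted Tut1 effect on Hnrnpk was a log2 change of -0.43 (SE 0.48) and the Trp53 effect -0.82 (SE 0.48).

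A comparison of the 3 Cre-LNP libraries with the wild type library was added after the data were seen. There edgeR called Hnrnpk (log2 change -1.65, SE 0.25, adjusted p = 0.0011) and Hnrnpd (1.87, SE 0.43, adjusted p = 0.0087), 2 of 10 members against 17.1% of 10596 genes. Both lay on the same side of wild type in 3 of 3 Cre-LNP libraries, which share that wild type library and entered the fit, so this count is no separate evidence. Hnrnpa1 (-0.59, SE 0.19, adjusted p = 0.0389) and Hnrnpa2b1 (-0.66, SE 0.22, adjusted p = 0.0485) passed the FDR and not the 2-fold limit (20.9% of all genes passed the FDR), and did not pass it with DESeq2 (0.113 and 0.115), and Hnrnpu stood at 0.63 (SE 0.22, adjusted p = 0.0534). Without the P53 KO library the log2 change was -1.45 for Hnrnpk and 1.71 for Hnrnpd, and neither was called. The spread in this fit is that among the Cre-LNP libraries, which differ in genotype, and the lone wild type library is assumed to vary as they do.

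Other genes of the hnRNP class served as a backdrop. Of 22 such genes, 19 were measured. Against wild type, by the 2-fold rule, 0 were higher and 2 lower in Tut1 KO (13.1% and 12.8% of all genes). In P53 KO 1 was higher and 3 lower (13.2% and 14.3%), and in Tut1 and P53 KO 0 higher and 1 lower (10.1% and 9.94%). Hnrnpll, a relative of Hnrnpl known from T cell splicing, was lower in all 3, with 92 reads in wild type and 16, 13 and 15 in the others (log2 ratios -2.11, -2.59 and -2.20). Ptbp2, the neuronal polypyrimidine tract-binding protein, was lower in Tut1 KO (-1.15) and P53 KO (-1.15). Hnrnph2 was lower in P53 KO than in wild type (-1.39) and higher in Tut1 and P53 KO than in P53 KO (1.19), and Hnrnpab was higher in P53 KO than in wild type (1.05). The median over the 19 genes was -0.10, -0.24, -0.19 against wild type in the order of the libraries and 0.06 for Tut1 and P53 KO against P53 KO. Over all genes tested the same medians were 0.02, 0.02, -0.02 and -0.02.

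The 127 member isoforms comprised 44 annotated Ensembl transcripts, 17 numbered variants of one, and 66 named only by a read, whose structure was not used here. Annotated transcripts held 73.2%, 65.5%, 65.6% and 68.0% of member reads. Usage, the percentage of a gene's reads in an isoform, was compared between libraries with Fisher's exact test on reads, which compares the libraries and not the conditions. A call needed an FDR under 0.05 and a gap of 10 percentage points or more. In Tut1 KO against wild type, 2 of 88 member isoforms tested were called (8.66% of all isoforms tested), in P53 KO 4 of 87 (9.12%), and in Tut1 and P53 KO 2 of 87 (6.49%). In Tut1 and P53 KO against P53 KO, 0 of 81 were called, against 1.24% of all isoforms tested, and 6 had an FDR under 0.05 whatever the gap, against 2.49%. Against wild type, that FDR was met by 22 of 88 member isoforms in Tut1 KO (14.1% of all isoforms), 19 of 87 in P53 KO (15%) and 14 of 87 in Tut1 and P53 KO (10.9%). In each pair the members' share lay below that of the whole table by the 10-point rule and above it by the FDR alone. Neither gap was tested, and the FDR depends on read number, in which members and all isoforms were not matched.

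The alternative coding segments that the results on usage turn on are printed here from the GENCODE M21 transcripts on GRCm38, 5′ to 3′, with the segment in capitals and 10 bases of flank on each side. They are reference sequence, not consensus of the reads. The Hnrnpa2b1 exon of 36 bases (chr6:51467391-51467426) separates the B1 protein from A2. The exon of 120 bases (chr6:51464428-51464547) lies in the part that encodes the glycine-rich tail.
Hnrnpa2b1 36 bases: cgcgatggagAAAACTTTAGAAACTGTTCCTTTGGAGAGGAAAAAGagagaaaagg
Hnrnpa2b1 120 bases: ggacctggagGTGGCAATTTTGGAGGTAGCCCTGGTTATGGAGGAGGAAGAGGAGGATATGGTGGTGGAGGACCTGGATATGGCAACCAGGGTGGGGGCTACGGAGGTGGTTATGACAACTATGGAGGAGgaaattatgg

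G made up 44.2% of the exon of 120 bases and 22.2% of the exon of 36 bases, beside 31.9% of the whole coding sequence. Both lengths are multiples of the codon, so skipping either exon keeps the reading frame.

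In Hnrnpa2b1, the transcript Hnrnpa2b1-201 (ENSMUST00000069949), which lacks both of these exons, took a larger share of the gene in the Cre-LNP libraries. It held 7.43%, 18.4%, 18.1% and 15.4% of the gene's reads. Against wild type the differences were 10.9 points in Tut1 KO (adjusted p = 8.42e-32, Fisher's exact test), 10.7 points in P53 KO (2.23e-30) and 7.93 points in Tut1 and P53 KO (1.55e-21), of which the first 2 were called. It had 316, 351, 341 and 390 reads, or 78.7, 117, 99.8 and 130 CPM, so its level was higher in the Cre-LNP libraries while that of the whole gene was lower. The wild type interval (70.3 to 87.9 CPM) overlapped none of the others. Hnrnpa2b1-203 (ENSMUST00000114459), which holds both exons, had 15.5%, 12.4%, 11.7% and 15.2% of the reads, and Hnrnpa2b1-204 (ENSMUST00000203220), with the exon of 120 bases alone, 11.5%, 9.36%, 9.87% and 9.96%. The single largest entry of the gene, named by a read, held 34.3%, 28.5%, 25.6% and 30.8%.

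Over the reads of annotated coding transcripts (1628, 834, 817 and 1109), the exon of 120 bases was present in 74.8%, 52.4%, 53.2% and 60.3%. The wild type interval (72.7% to 76.9%, Wilson 95%) lay above the other 3, and that of Tut1 and P53 KO (57.4% to 63.2%) above those of Tut1 KO and P53 KO, which overlapped. The exon of 36 bases was present in 40.4%, 28.4%, 27.1% and 34.8%. Both shares were highest in wild type. Hnrnpa2b1-201 counts as a transcript without the exon in both, so neither share is separate from the usage of that transcript. Shares with it left out were not computed. These shares leave out isoforms named only by a read, 41.1% to 51.2% of the gene.

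The ends of the transcripts were compared as well. All annotated coding transcripts of Hnrnpa2b1 counted here stop in the same exon, 24 bases before a splice junction, and then join one of 3 downstream exons. The junctions are printed because Hnrnpa2b1-203, Hnrnpa2b1-201 and the decay isoform Hnrnpa2b1-207 differ there, although the junction of Hnrnpa2b1-207 also occurs in the coding transcript Hnrnpa2b1-202 (72, 21, 28 and 30 reads) and so does not mark decay, with the 15 bases after each junction in capitals.
Hnrnpa2b1-203, chr6:51463254-51463411: tcctacttaccatggGCTTCACTGTATAAA
Hnrnpa2b1-201, chr6:51461433-51463411: tcctacttaccatggGAAGGTGTCTTGCTG
Hnrnpa2b1-207, chr6:51462055-51463411: tcctacttaccatggCATTGATATGAACCA

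Among the annotated coding and decay transcripts, the distal last exon, that of Hnrnpa2b1-201, Hnrnpa2b1-202, Hnrnpa2b1-207 and Hnrnpa2b1-209, was used by 28.1%, 49.3%, 52.0% and 41.1% of reads (of 1724, 911, 933 and 1169). The wild type interval of 26.0% to 30.2% overlapped none of the others. Most of the reads with this last exon were of Hnrnpa2b1-201 in every library, so the share largely restates the usage of that transcript. The share with it left out was not computed. The Hnrnpa2b1-207 isoform (ENSMUST00000203954), annotated to nonsense-mediated decay and, like Hnrnpa2b1-202, carrying a second junction 160 bases after the last coding base, held 1.74%, 3.56%, 5.41% and 1.85% of the gene. Its share in Tut1 and P53 KO was 3.56 points below that in P53 KO (adjusted p = 9.9e-08, Fisher's exact test), short of the 10-point limit. The retained-intron isoform Hnrnpa2b1-211 (ENSMUST00000204885) held 8.13%, 7.53%, 9.12% and 6.26%.

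**Figure D3:**
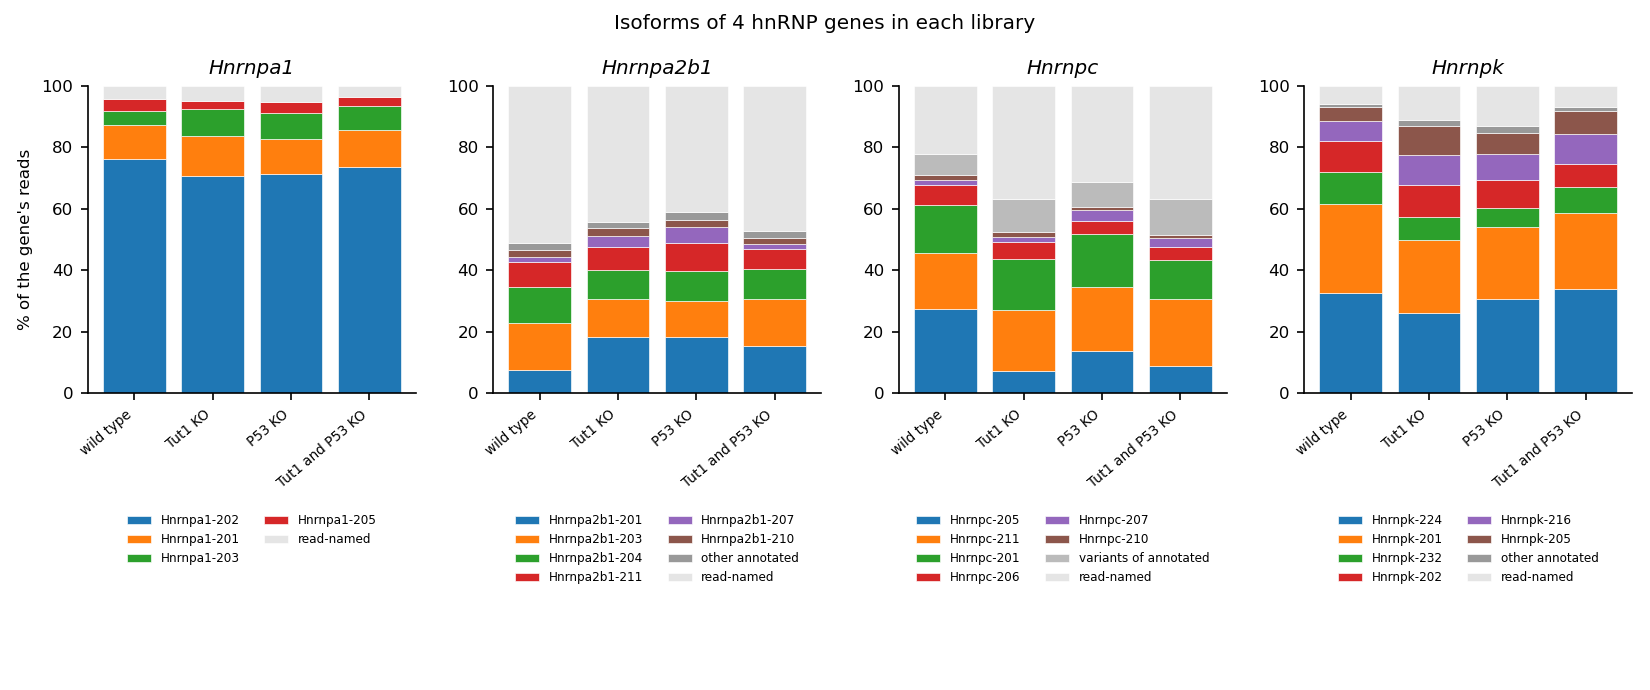
Percentage of the reads of Hnrnpa1, Hnrnpa2b1, Hnrnpc and Hnrnpk in each isoform, stacked per library, with up to 6 annotated transcripts in colour and other annotated, variant and read-named isoforms in greys. The lowest segment of the Hnrnpa2b1 bars (Hnrnpa2b1-201) is 7.43% in wild type and 15.4% to 18.4% in the other libraries, and that of the Hnrnpc bars (Hnrnpc-205) is 27.3% in wild type and 7.30% to 13.6% in the others.

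Hnrnpa1 was mostly 1 transcript. Hnrnpa1-202 (ENSMUST00000087351) held 76.3%, 70.7%, 71.3% and 73.5% of its reads, and Hnrnpa1-201 (ENSMUST00000036004) 10.8%, 13.1%, 11.4% and 12.1%. The decay isoform Hnrnpa1-203 (ENSMUST00000230171) ends in a distal exon and shares the stop codon of Hnrnpa1-202, so the junctions after the stop are set side by side.
Hnrnpa1-202, chr15:103244028-103244256: attacatacagccagGAAACAAAGCTTAGC
Hnrnpa1-203, chr15:103244028-103246346: attacatacagccagGAAGGAATCTGCTAT

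Hnrnpa1-203 carries a further junction 93 bases after the last coding base. It held 4.67%, 8.78%, 8.48% and 7.95% of the gene's reads (277, 255, 253 and 272 reads). Against wild type the share was higher by 4.11, 3.82 and 3.29 points (adjusted p = 1.49e-11, 1.87e-10 and 1.92e-08, Fisher's exact test), all under the 10-point limit. As a level it stood at 68.99, 84.7, 74.0 and 90.7 CPM, and the wild type interval (61.1 to 77.6 CPM) overlapped those of Tut1 KO and P53 KO and lay below that of Tut1 and P53 KO (80.2 to 102.1 CPM).

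Counted as a class, reads in annotated unproductive isoforms (retained intron or decay, numbered variants left out) could be tested in 2 members, and 0 were called in any pair. All genes were called in 20.8%, 19.3% and 15.9% of cases against wild type and in 1.89% for Tut1 and P53 KO against P53 KO. In Hnrnpa1 the class is Hnrnpa1-203 alone. In Hnrnpa2b1 the class held 10.5%, 11.9%, 15.5% and 9.18% of the reads. The 5.01-point difference of P53 KO from wild type (adjusted p = 8.57e-07, Fisher's exact test) and the -6.37 points of Tut1 and P53 KO from P53 KO (8.64e-08) passed the FDR alone, which 30.1% and 3.51% of all genes tested passed. In Hnrnpa1 the FDR alone was passed in Tut1 KO, P53 KO and Tut1 and P53 KO against wild type (31.7%, 30.1% and 25.9% of all genes). The median difference over all genes tested was 3.00, 1.93 and 2.10 points against wild type. Elsewhere the class was thin, with at most 5 reads a library in Hnrnpk, Hnrnpl and Hnrnpu, led by Hnrnpk-217, Hnrnpl-205 and Hnrnpu-202, while the Hnrnph3 intron isoform Hnrnph3-205 had 0, 7, 6 and 0 reads. The 0 of 142 and 0 of 73 Hnrnph3 reads allow a share of up to 2.11% and 4.11% when 3 reads are taken as the limit of a count of 0, and up to 2.63% and 4.999% by the Wilson interval. With numbered variants given the class of their transcript, the class held 9.86%, 21.1%, 16.8% and 12.3% of Hnrnph3 reads and 7.80%, 11.6%, 11.3% and 7.09% of Hnrnpdl reads.

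Hnrnpc and Hnrnpk hold the other segments printed, with the same marking. In Hnrnpc the 39 bases (chr14:52081789-52081827) are the insert that separates the C2 protein from C1, and 21 bases (chr14:52075416-52075436) are a further choice near the end of the coding sequence. In Hnrnpk the exon of 72 bases (chr13:58396188-58396259) is included or skipped, and the last coding bases come from one of 2 neighbouring acceptors (chr13:58392446-58392476 and chr13:58392389-58392416) that give the protein different ends.
Hnrnpc 39 bases: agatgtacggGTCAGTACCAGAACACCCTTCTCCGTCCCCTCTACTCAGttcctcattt
Hnrnpc 21 bases: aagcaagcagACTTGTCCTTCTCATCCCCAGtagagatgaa
Hnrnpk 72 bases: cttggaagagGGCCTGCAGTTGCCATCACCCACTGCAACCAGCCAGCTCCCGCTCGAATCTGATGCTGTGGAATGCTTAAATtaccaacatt
Hnrnpk end, 31 bases: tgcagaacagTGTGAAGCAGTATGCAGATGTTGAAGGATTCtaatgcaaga
Hnrnpk end, 28 bases: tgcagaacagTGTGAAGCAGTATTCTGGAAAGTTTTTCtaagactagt

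Hnrnpc-205 (ENSMUST00000227242), with the 21 bases and without the 39, was the most used isoform of Hnrnpc in wild type and ranked below Hnrnpc-211 and Hnrnpc-201 in the other libraries. It held 27.3%, 7.30%, 13.6% and 8.68% of the gene's reads (249, 47, 75 and 64 reads). Its difference from wild type was -19.97 points in Tut1 KO (adjusted p = 2.36e-22, Fisher's exact test), -13.6 points in P53 KO (3.02e-08) and -18.6 points in Tut1 and P53 KO (4e-20), and was called in all 3. Hnrnpc-211 (ENSMUST00000228748), without either insert, held 18.2%, 19.9%, 20.7% and 22.0%, and Hnrnpc-201 (ENSMUST00000111610), with both, 15.8%, 16.5%, 17.5% and 12.5%. The leading read-named isoform held 6.35%, 10.6%, 8.55% and 10.4%, and read-named isoforms together made up 22.0%, 36.8%, 31.3% and 36.8% of Hnrnpc reads. Over the annotated coding transcripts, the 21 bases were present in 62.9%, 49.0%, 57.1% and 46.6% and the 39 bases of C2 in 22.3%, 31.5%, 28.8% and 24.2%. The intervals of wild type for the 21 bases (59.1% to 66.5%) lay above those of Tut1 KO and of Tut1 and P53 KO, and overlapped that of P53 KO.

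Several coding transcripts share the Hnrnpk reads. Hnrnpk-224 (ENSMUST00000224182) held 32.5%, 26.1%, 30.5% and 33.8%, Hnrnpk-201 (ENSMUST00000043269) 28.9%, 23.6%, 23.5% and 24.8%, Hnrnpk-202 (ENSMUST00000116403) 9.98%, 10.4%, 9.39% and 7.22%, and Hnrnpk-232 (ENSMUST00000225674) 10.6%, 7.74%, 6.10% and 8.57%. None of its isoforms was called in any of the 4 pairs. The exon of 72 bases was present in 88.2%, 78.2%, 82.3% and 81.2% of annotated coding transcripts, with the wild type interval (86.7% to 89.5%) above the other 3. The coding end of 31 bases held 63.6%, 61.3%, 63.2% and 64.2%, and all 4 intervals overlapped.

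**Figure D4:**
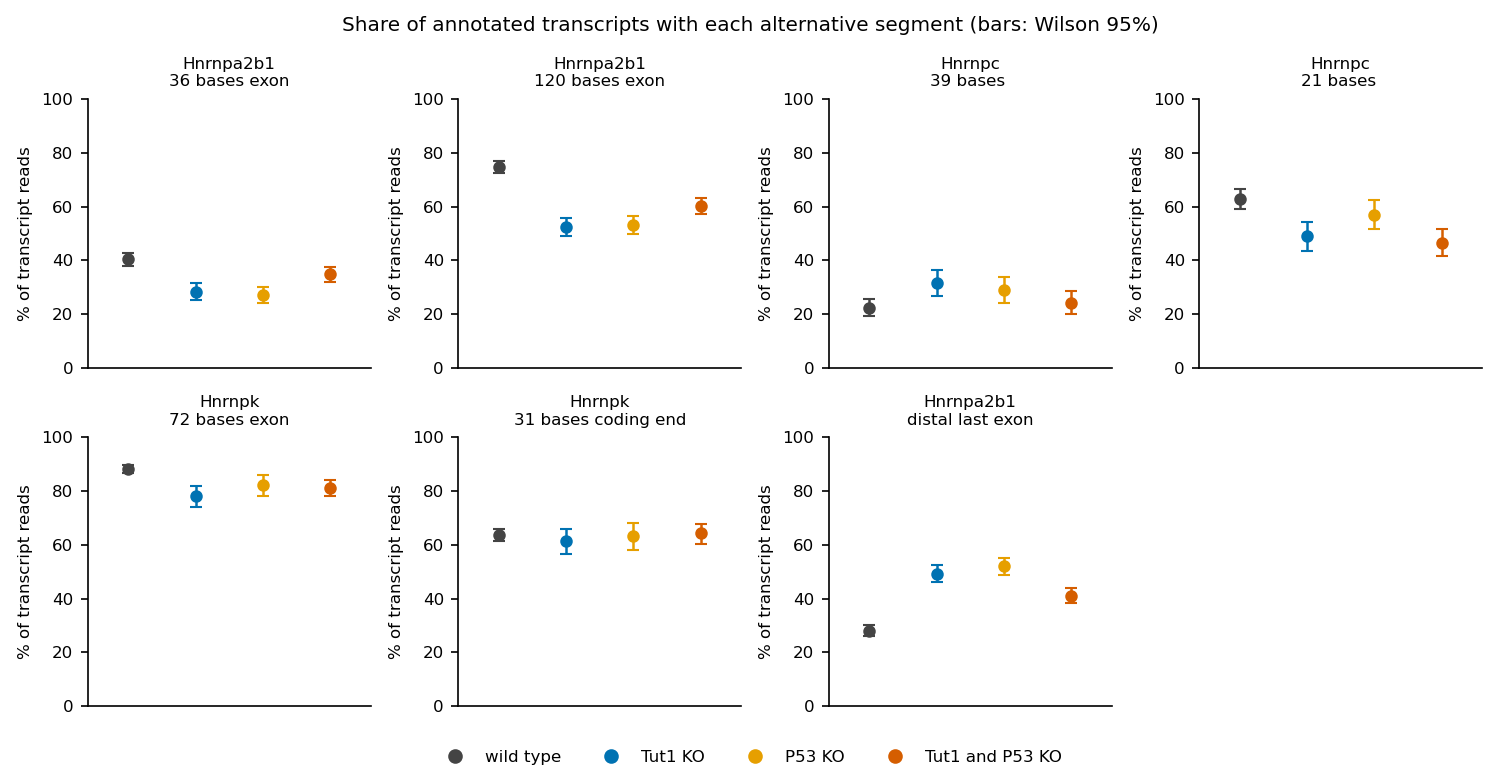
Share of annotated coding transcripts that hold each alternative coding segment of Hnrnpa2b1, Hnrnpc and Hnrnpk, and, in the last panel, share of Hnrnpa2b1 coding and decay transcripts with the distal last exon, in percent per library with Wilson 95% intervals. The Hnrnpa2b1 exon of 120 bases is at 74.8% in wild type and 52.4% to 60.3% in the others, while the Hnrnpk coding end lies between 61.3% and 64.2% in every library.

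In Hnrnpdl, the coding isoform Hnrnpdl-202 (ENSMUST00000128187) held 68.6%, 77.7%, 76.5% and 79.3% of reads and was called in Tut1 and P53 KO against wild type (10.6 points, adjusted p = 0.0051, Fisher's exact test). Hnrnpdl-207 (ENSMUST00000153442) held 10.7%, 6.53%, 3.87% and 6.56%, and the variant of the decay transcript Hnrnpdl-201 held 7.80%, 11.6%, 11.3% and 7.09%. In Hnrnph3, a variant of Hnrnph3-201 (38.7%, 23.9%, 18.9% and 28.8%) and the leading read-named isoform (9.15%, 8.45%, 25.3% and 10.96%) were called in P53 KO against wild type, on 142 and 95 gene reads (-19.8 and 16.1 points, adjusted p = 0.0144 and 0.0151, Fisher's exact test). The variants of Hnrnph3-202 and of the decay transcript Hnrnph3-204 held 24.7% to 29.6% and 9.47% to 12.3%.

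Hnrnph1, Hnrnpl and Hnrnpu gave no called isoform in any pair. In Hnrnph1, Hnrnph1-201 (ENSMUST00000069304) held 53.1%, 54.8%, 50.2% and 43.4%, a variant of Hnrnph1-204 17.2%, 11.6%, 15.6% and 14.2%, Hnrnph1-202 (ENSMUST00000077817) 9.20%, 9.55%, 12.3% and 11.3%, and the leading read-named isoform 8.61% to 12.3%. Hnrnpu was 98.0% to 98.5% a variant of Hnrnpu-201 in every library, and Hnrnpl was 79.1% to 86.2% a variant of Hnrnpl-201, with 7.81% to 16.1% in a read-named isoform. In Hnrnpd, a read-named isoform held 61.1% to 70.3% of reads and another 5.26% to 16.2%, and the variants of Hnrnpd-201, Hnrnpd-202 and Hnrnpd-203 held 0% to 10.5%, 1.35% to 15.4% and 2.70% to 10.5%. With 19 gene reads in wild type, under the minimum of 20, Hnrnpd isoforms were not tested against wild type, and in Tut1 and P53 KO against P53 KO none was called.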

How the data were processed

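Total RNA of neural stem cells was sequenced from PCR-amplified cDNA on the Nanopore platform, 1 library per group, 4 in all. The authors deposited 1 table of raw read counts, with isoforms in rows and a column per library. The submitters' processing notes name the build mm10. The study's methods name minimap2 and FLAIR for long reads of embryonic samples, and whether they also made this table, with which filters and handling of strand and multiple matches, was not given in the sources used here, nor what the numbered suffix of a variant marks. Members and gene lists were chosen with earlier results of these data known. Of 255164 entries, 208527 named no gene and stayed out of library sizes. Symbols, biotypes and sequences came from GENCODE M21 on GRCm38, the assembly of mm10, which held symbols for 14939 of 14949 genes and 21814 of 21893 plain transcripts.

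Isoform counts were added up to give gene counts. CPM are reads per 1e6 gene reads after TMM scaling (factors 0.946, 1.01, 0.995 and 1.05), with exact Poisson 95% intervals. Ratios have exact conditional binomial intervals. Fits across all genes used edgeR 4.0.16 in R 4.3.3 (quasi-likelihood test, default expression filter, Benjamini-Hochberg FDR under 0.05 and at least 2-fold), with DESeq2 1.42.0 as the alternative. Standard errors are the log2 change over the square root of F. Usage used Fisher's two-sided exact test where an isoform had 10 or more reads in the pair and its gene at least 20 in both libraries, with the FDR over all isoforms tested in the pair. The share of unproductive isoforms was tested likewise over genes. Shares have Wilson 95% intervals. Intervals cover counting error only, since PCR copies of 1 molecule cannot be told from separate molecules here. Alternative coding segments of Hnrnpa1 are not reported here. The Cre-LNP fit, the coding segments, the last exons and the search for copies (blastn) were added after the data were seen. Isoforms named are those with at least 10% of a gene's reads in a library, those called in a pair, and the unproductive isoform of each gene with the most reads. Hnrnpa2b1-202, Hnrnpa2b1-207 and Hnrnpa2b1-209 were named after their values were seen. Of the other hnRNP-class genes those called in a pair are named. Other steps ran in Python 3.11.15 (pandas 2.3.3, numpy 2.4.6, matplotlib 3.10.9, scipy 1.17.1). The ratio rule, the usage test, the class share test and the edgeR fits for Tut1 status and Cre-LNP were tried on simulated counts. Those for ratios, usage and class shares held sampling error only. Other statistics were not tried on simulated counts.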

Additional observations from a re-analysis of the deposited data

Results flagged for a closer look

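For 6 members, the ratio of the library labelled Tut1 KO to wild type and that of Tut1 and P53 KO to P53 KO, which share no library, lay on opposite sides of no change with both counting intervals excluding it, as did 16.7% of all 9882 genes. The log2 ratios in that order were -1.69 and 0.83 for Hnrnpk, -0.74 and 0.62 for Hnrnpa2b1, -0.62 and 0.39 for Hnrnpa1, -0.36 and 0.26 for Hnrnpdl, 1.92 and -0.74 for Hnrnpd, and 0.75 and -0.18 for Hnrnpu. The difference between the paired ratios was not tested, since each library stands alone. Read depth, on which such intervals depend, was not matched between the members and all genes. The libraries labelled Tut1 KO and P53 KO also shared Xist reads (44 and 49) and 0 Kdm5d reads, whereas wild type and Tut1 and P53 KO had 0 Xist reads and 102 and 96 Kdm5d reads. Tut1 reads were 37 in wild type and 11 in Tut1 KO, and 27 in Tut1 and P53 KO and 14 in P53 KO, so they too differed in opposite directions and, in the second pair, against the labels. The intervals of the Tut1 levels overlapped within both pairs. With the labels P53 KO and Tut1 and P53 KO exchanged, the second ratio would turn and all 6 members would have the same sign in both. Such an exchange was not tested, and the splicing events reported by the study run with the labels. The part of these in the hnRNP ratios was not tested.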

How the results depend on the processing

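No paired analysis was possible because each group was 1 library. No called ratio of a member turned when the scaling was changed, but shifts of at most 0.15 were too small to turn any. Hnrnpk and Hnrnpd kept their sign in every run of the added Cre-LNP fit. Directions of isoform usage and class shares were not recorded under the alternatives. Of values not called, the Hnrnpc log2 ratio of Tut1 KO to wild type went from -0.09 to 0.01 with library totals, and its Cre-LNP effect from -0.15 to 0.02 without P53 KO. Without the 2-fold limit, 8 members differed from wild type in Tut1 KO, 8 in P53 KO and 6 in Tut1 and P53 KO, and 7 between Tut1 and P53 KO and P53 KO. With a limit of 20 points for usage, 0 member isoforms were called in Tut1 KO, 0 in P53 KO and 0 in Tut1 and P53 KO against wild type. With at least 100 gene reads in each library, P53 KO against wild type gave 2 calls beside 4, since Hnrnph3 has under 100 reads there. The share of all isoforms called under these other usage limits was not computed, so these counts have no backdrop. In the added Cre-LNP fit, leaving out 1 Cre-LNP library gave 0 to 2 members called, 0 without P53 KO (0 genes in the whole table, beside 1808), and DESeq2 gave 2 members (974 genes). Library totals used for scaling instead of TMM shifted every log2 ratio by 0.10, 0.07 and 0.15 against wild type and by 0.07 in Tut1 and P53 KO against P53 KO, and changed no member's call. Of the counts of members called, recomputed under each alternative, 63 stayed within 1.5 times the reported count and the 9 given above did not. With 19 reads in wild type, Hnrnpd is the member whose level depth limits most, and 41.1% to 51.2% of Hnrnpa2b1 reads have no annotated structure.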
